A study of Homo sapiens with 6 samples.

Results

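Interferon-stimulated genes are the genes that a cell switches on when it senses interferon. The 53 genes described here were taken as a listed set, by matching each listed symbol to the symbol column of a table of 20348 genes. The RNA came from MV4-11, an established human acute myeloid leukemia (AML) cell line. In the experiment, 3 Control samples were left untreated and 3 samples received 1 μM WNK463 for 48 h. WNK463 is a small molecule that inhibits the WNK kinases, a family known for controlling ion transport. All 6 samples are from this 1 cell line, and the labels name no interferon treatment. The labels do not say whether the 3 samples of a group were separate cultures, so p-values measure the spread between these samples. The comparison asks which transcripts changed in the cell line after WNK inhibition.

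Interferons are secreted proteins that bind receptors on the cell surface. Type I interferons act through the kinases JAK1 and TYK2, which phosphorylate STAT2. It acts in a complex with IRF9, which enters the nucleus and binds the interferon-stimulated response element (ISRE) in target promoters. Interferon-gamma acts through JAK1 and JAK2 and another element, the gamma-activated site (GAS). The products of the target genes sense viral RNA, block viral entry and translation, tag proteins with ISG15 and present antigen. Several of them, such as STAT2 and IRF9, are themselves parts of the pathway.

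Promoter sequence was available for 41 of the 53 genes, as RefSeq windows on GRCh38.p14 from 250 bases before to 50 bases after the start. The core of the ISRE was searched as GAAANNGAAA on either strand, which reads TTTCNNTTTC on the other strand. This core was present in 24 of 41 members (58.5%), in 2.93% of the 9647 promoters of tested genes and in 3.65% of all 27305 promoters. The core of the GAS, TTCNNNGAA, was present in 10 members (24.4%), in 6.36% of the promoters of tested genes and in 7.88% of all promoters. Matches to both cores overlapped in BST2, EPSTI1 and IFITM1. The following stretches of 60 bases are shown because they carry the ISRE core in members that were higher (IFIT1, IFIT3, IFIH1, IFI44, IFI6), lower (BST2) or not past the test (SAMD9) after WNK463. They are printed 5′ to 3′ on the strand of the gene, with complete ISRE cores in capitals, and overlapping cores run together. Each lies before the RefSeq start of its gene. The positions are chr10:89392495-89392554 (plus strand, IFIT1), chr10:89327850-89327909 (plus strand, IFIT3), chr2:162318685-162318744 (minus strand, IFIH1), chr1:78649729-78649788 (plus strand, IFI44), chr1:27672251-27672310 (minus strand, IFI6), chr19:17405720-17405779 (minus strand, BST2) and chr7:93118081-93118140 (minus strand, SAMD9).
IFIT1: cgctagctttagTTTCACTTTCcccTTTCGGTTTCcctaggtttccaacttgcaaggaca
IFIT3: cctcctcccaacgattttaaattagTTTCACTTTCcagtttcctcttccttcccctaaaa
IFIH1: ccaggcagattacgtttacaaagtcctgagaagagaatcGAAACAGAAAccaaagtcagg
IFI44: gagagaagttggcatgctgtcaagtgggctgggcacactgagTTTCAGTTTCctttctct
IFI6: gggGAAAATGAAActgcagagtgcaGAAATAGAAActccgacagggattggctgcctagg
BST2: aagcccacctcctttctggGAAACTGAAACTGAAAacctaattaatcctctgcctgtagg
SAMD9: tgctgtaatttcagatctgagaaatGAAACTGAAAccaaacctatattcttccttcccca

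More interferon-stimulated genes were higher than lower after WNK463. Of the 53 members, 49 had enough counts to be tested, and 27 of these rose (55.1%) while 10 fell (20.4%) at an adjusted p below 0.05 (edgeR quasi-likelihood test, Benjamini-Hochberg over all genes). The same test called 35.5% of all 11973 tested genes higher and 35.3% lower. At least a 2-fold change was called higher for 10 members (20.4%) and lower for 3 (6.12%), beside 9.62% and 5.55% of all tested genes. The median log2 fold change of the tested members was 0.51, with a range from -1.42 to 3.65, and the median of all tested genes was 0.02. The values of the groups did not overlap for 38 tested members (77.6%) and for 73.5% of all tested genes. Expression is given below as counts per 1000000 counts of the TMM-normalized library (CPM) unless TPM is named.

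The size of the set's shift depended on the scaling and on the filter for low counts. The TMM factors lay between 0.944 and 0.951 in Control and between 1.05 and 1.06 after WNK463. Scaling by total counts moved the log2 fold changes of all genes up by a median of 0.15. It gave 30 members higher and 5 lower, beside 46.1% and 26.1% of all tested genes. The share of called members that were higher was then 85.7%, in place of 73.0%, and that of all called genes 63.8%, in place of 50.2%. Of the tested members, 41 reached the filter's cutoff of 0.625 CPM in both groups, 7 reached it in the WNK463 group alone and 1 in the Control group alone. A gene that passed through its higher group alone was kept because of that group, and 6 of the 10 members called higher at least 2-fold passed this way. They were IFIT1, IFIT2, IFIT3, GBP5, IFI44 and IFI44L. GBP3, among the 3 members called lower at least 2-fold, was kept because of the Control group alone. When every sample had to reach 10 counts, 41 members were tested, 21 were higher (51.2%) and 9 lower (22%), beside 35.8% and 35.7% of all genes. At least a 2-fold change was then called higher for 4 members (9.76%) and lower for 1 (2.44%), beside 6.64% and 4.59% of all genes.

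**Figure D1:**
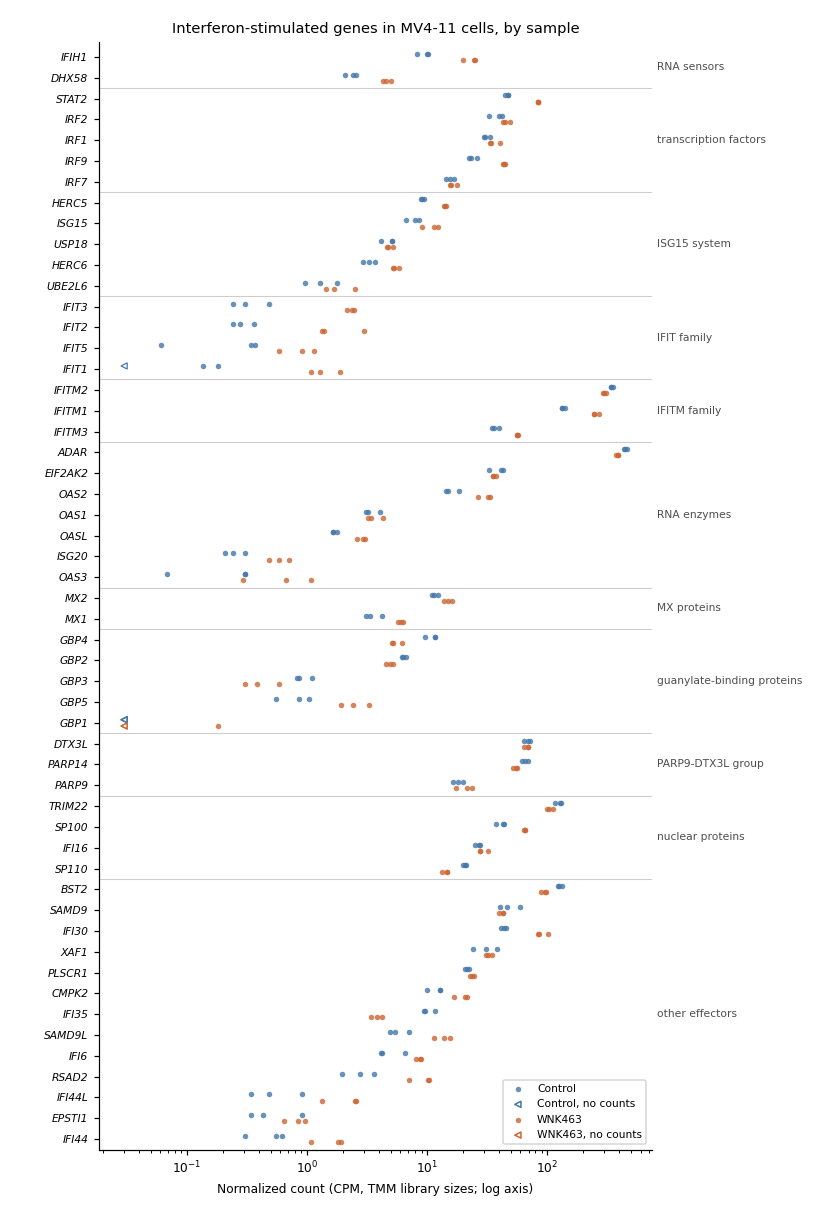
Normalized counts of the 53 interferon-stimulated genes by role, with CPM on a log axis, blue points for the 3 Control samples, orange points for the 3 WNK463 samples and open triangles for samples with no counts. IFITM2 and ADAR lie at the right with slightly lower WNK463 points, and the IFIT genes lie at the left with WNK463 points far above Control.

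**Figure D2:**
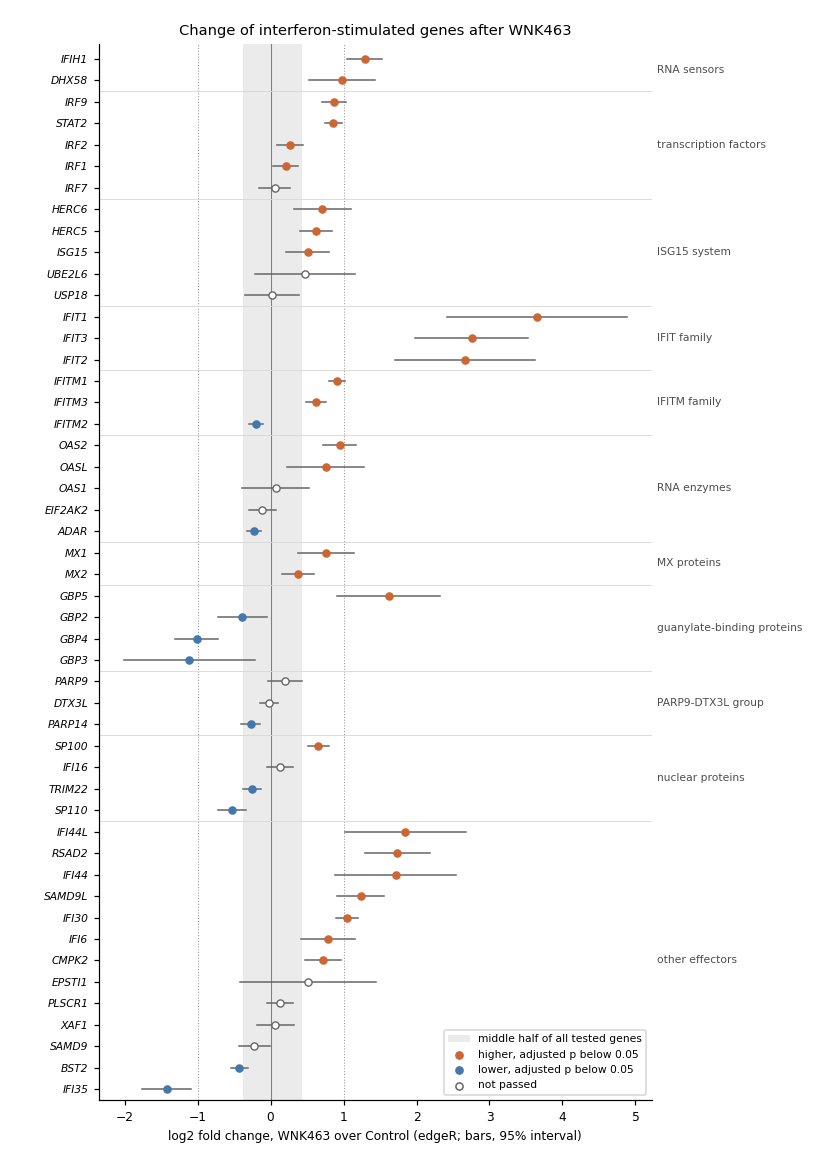
Log2 fold change of the 49 tested members by role, with 95% intervals as bars and the interquartile range of all tested genes (-0.38 to 0.43) as a gray band. IFIT1 is highest at 3.65 and IFI35 lowest at -1.42, and dotted lines mark a 2-fold change in each direction.

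The plots of values by sample and of changes by role carry the order used below, from the sensors to the effectors. Over all tested genes 35.5% were called higher and 35.3% lower, so the counts by role below are no result about a role. Both RNA sensors of the list rose. IFIH1 encodes MDA5, which detects long double-stranded viral RNA in the cytoplasm. IFIH1 was at 8.28, 9.95 and 10.2 CPM in Control and at 25.2, 19.9 and 24.4 CPM after WNK463. All WNK463 samples lay above all Control samples, 2.44-fold higher on average (log2 fold change 1.29, SE 0.12, edgeR adjusted p = 1.9e-08). DHX58 encodes LGP2, a regulator of MDA5. DHX58 rose with a log2 fold change of 0.98 (SE 0.21, edgeR adjusted p = 5.4e-04).

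Of the 5 transcription factors, 4 rose and IRF7 did not pass the test. STAT2 and IRF9 are parts of the DNA-binding complex of type I interferon signaling. STAT2 was at 47.6, 47.2 and 44.3 CPM in Control and at 84.6, 84.0 and 84.0 CPM after WNK463, a log2 fold change of 0.86 (SE 0.06, edgeR adjusted p = 3.3e-10). IRF9 was at 23.1, 22.6 and 26.2 CPM in Control and at 44.1, 42.8 and 44.6 CPM after WNK463, a log2 fold change of 0.87 (SE 0.08, edgeR adjusted p = 1.1e-08). For both genes the groups were far apart relative to their spread. IRF9 overlaps a read-through gene, and 39.1% of its 100-base transcript windows also occur in that gene, so its counts are uncertain. IRF1, an activator of interferon-gamma targets, and IRF2, which can repress them, rose by 0.21 and 0.26 on the log2 scale. The call for IRF1 was lost with DESeq2 (log2 fold change 0.20) and without Control replicate 2 (0.17), Control replicate 3 (0.18) or WNK463 replicate 3 (0.12), and that for IRF2 without Control replicate 1 (0.16) or WNK463 replicate 3 (0.21). IRF7, the factor that amplifies interferon production, had 14.4 to 16.9 CPM in Control and 15.5 to 17.6 CPM after WNK463, so its groups overlapped. It was called higher with limma on TPM (log2 fold change 0.23 and 0.25 on the 2 TPM scales).

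ISG15 is a ubiquitin-like protein that is joined to other proteins by UBE2L6 and HERC5 and removed by USP18. Of these genes and the related HERC6, 3 rose and 2 did not pass. HERC5, the ligase, had the highest counts of the group, with 9.38, 9.12 and 8.96 CPM in Control and 14.3, 14.0 and 14.0 CPM after WNK463 (log2 fold change 0.62, SE 0.11, edgeR adjusted p = 4.8e-05). HERC6 was at 3.29, 2.95 and 3.72 CPM in Control and at 5.19, 5.35 and 5.81 CPM after WNK463 (log2 fold change 0.71, SE 0.19, edgeR adjusted p = 0.0024). In neither gene did the groups overlap. ISG15 itself rose with a log2 fold change of 0.51 (SE 0.14, edgeR adjusted p = 0.004). UBE2L6 and USP18 had overlapping groups, with 0.96 to 1.77 and 4.12 to 5.12 CPM in Control and 1.45 to 2.49 and 4.65 to 5.17 CPM after WNK463. USP18 shares 15.4% of its transcript windows with USP41.

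The IFIT genes encode proteins that bind viral RNA and block its translation. They lie side by side on chromosome 10, from 89283694 to 89421001 (GRCh38, GENCODE 29). Their levels were among the lowest of the set and their fold changes the highest. IFIT1 had 0, 2 and 3 counts in Control and 31, 22 and 17 counts after WNK463. The ratio of the summed counts was 13.4, with a 95% interval for counting error from 5.49 to 42.6. The fitted log2 fold change of 3.65 rests on those few Control counts. IFIT2 was at 0.365, 0.274 and 0.244 CPM in Control and at 1.39, 2.97 and 1.34 CPM after WNK463 (log2 fold change 2.66, SE 0.46, edgeR adjusted p = 5.0e-05). IFIT3 was at 0.304, 0.480 and 0.244 CPM in Control and at 2.17, 2.44 and 2.36 CPM after WNK463 (log2 fold change 2.75, SE 0.37, edgeR adjusted p = 2.9e-06). For all 3 genes every WNK463 sample was above every Control sample. These genes passed the low-count filter through the WNK463 group alone, with no Control sample at its cutoff. Being tested thus largely fixed this separation, which adds no support for the rise. IFIT5 was not tested, with 0.061 to 0.366 CPM in Control and 0.581 to 1.15 CPM after WNK463. IFIT2 overlaps an exon of LIPA on the other strand, and LIPA fell, with a log2 fold change of -0.65.

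The IFITM genes encode small membrane proteins that stop viruses from fusing with the cell. They were among the most abundant members and did not move together. IFITM1 was at 140.2, 133 and 133 CPM in Control and at 244, 247 and 270.2 CPM after WNK463 (log2 fold change 0.91, SE 0.05, edgeR adjusted p = 5.2e-11). IFITM2 was at 352, 343 and 339 CPM in Control and at 297, 294 and 310.4 CPM after WNK463 (log2 fold change -0.20, SE 0.04, edgeR adjusted p = 6.7e-04). So IFITM1 rose in all 3 samples while IFITM2 was below Control in all 3. With scaling by total counts IFITM2 had a log2 fold change of -0.047 and did not pass. IFITM3 rose, with a log2 fold change of 0.62 (SE 0.07, edgeR adjusted p = 1.7e-07). The 3 genes resemble each other, and annotated exons of IFITM1 and IFITM2 overlap on the same strand. In all, 27.5% of the IFITM1 windows, 18.2% of the IFITM2 windows and 3.13% of the IFITM3 windows occur in another IFITM gene. Part of their counts may thus be split uncertainly.

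The RNA enzymes went in both directions. OAS proteins make the second messenger that activates RNase L, EIF2AK2 is the kinase PKR, and ADAR edits adenosines in double-stranded RNA. Of the 5 tested, 2 rose and 1 fell. OAS2 was at 18.4, 14.95 and 14.4 CPM in Control and at 33.3, 26.8 and 32.3 CPM after WNK463 (log2 fold change 0.95, SE 0.11, edgeR adjusted p = 3.3e-07). ADAR had the highest counts of the whole list, with 446, 459 and 438 CPM in Control and 388, 371 and 387 CPM after WNK463 (log2 fold change -0.23, SE 0.04, edgeR adjusted p = 1.6e-04). The groups were separate for both genes. With scaling by total counts ADAR had a log2 fold change of -0.078 and did not pass. OASL, a relative of OAS1 without its enzyme activity, rose by 0.75 on the log2 scale (edgeR adjusted p = 0.012), and was not called by DESeq2 (log2 fold change 0.75). OAS1, with 3.11 to 4.03 CPM in Control and 3.20 to 4.30 CPM after WNK463, and EIF2AK2, with 32.9 to 43.3 and 35.5 to 37.7 CPM, had overlapping groups and did not pass. Without Control replicate 1, EIF2AK2 was called lower at a log2 fold change of -0.23, and with scaling by total counts its sign turned (0.040). OAS3 and the exonuclease ISG20 were not tested, with at most 0.305 CPM in Control and at most 1.09 CPM after WNK463.

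MX1 and MX2, dynamin-like GTPases that trap viral particles, both rose. MX1 was at 4.20, 3.09 and 3.35 CPM in Control and at 6.28, 5.76 and 6.06 CPM after WNK463 (log2 fold change 0.76, SE 0.18, edgeR adjusted p = 0.0011). MX2 was at 11.4, 12.3 and 10.9 CPM in Control and at 16.1, 15.1 and 13.9 CPM after WNK463 (log2 fold change 0.38, SE 0.11, edgeR adjusted p = 0.004). The groups of both genes were separate.

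The guanylate-binding proteins are GTPases that attack intracellular pathogens and respond strongly to interferon-gamma. They lie in 1 cluster on chromosome 1, from 89006666 to 89272804, and changed in opposite directions. GBP5 was at 0.852, 0.549 and 1.04 CPM in Control and at 3.26, 1.92 and 2.43 CPM after WNK463 (log2 fold change 1.62, SE 0.34, edgeR adjusted p = 3.3e-04). GBP4, with the highest counts of the family, was at 11.7, 9.67 and 11.6 CPM in Control and at 5.13, 5.17 and 6.13 CPM after WNK463 (log2 fold change -1.01, SE 0.14, edgeR adjusted p = 4.7e-06). GBP5 was higher in all 3 WNK463 samples and GBP4 lower in all 3. GBP5 passed the low-count filter through the WNK463 group alone, so that it was tested depended on its higher group. GBP3 was at 0.852, 0.823 and 1.10 CPM in Control and at 0.302, 0.581 and 0.383 CPM after WNK463 (log2 fold change -1.11, SE 0.42, edgeR adjusted p = 0.026). It passed the low-count filter through the Control group alone, with no WNK463 sample at the cutoff. Being tested thus largely fixed the separation of its groups, which adds no support for the fall. GBP2 fell by 0.38 on the log2 scale (edgeR adjusted p = 0.037). The calls for GBP2 and GBP3 were not stable. That for GBP3 was lost with DESeq2 (log2 fold change -1.14), with no filter on low counts (-1.13) and without Control replicate 3 (-0.98), WNK463 replicate 1 (-0.92) or WNK463 replicate 3 (-1.05). That for GBP2 was lost with DESeq2 (-0.40), with scaling by total counts (-0.23) and without Control replicate 1 (-0.36), Control replicate 2 (-0.42), Control replicate 3 (-0.40), WNK463 replicate 1 (-0.40) or WNK463 replicate 3 (-0.34). GBP1 was not tested, with 0 counts in 5 samples and 3 counts in WNK463 replicate 1.

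PARP9 and DTX3L form a complex that modifies histones, and PARP14 is a related enzyme in the same region of chromosome 3. PARP14 was at 62.3, 65.8 and 69.0 CPM in Control and at 56.5, 52.0 and 54.7 CPM after WNK463 (log2 fold change -0.27, SE 0.06, edgeR adjusted p = 7.6e-04). With scaling by total counts it had a log2 fold change of -0.12 and did not pass. DTX3L was at 64.7, 69.7 and 72.3 CPM in Control and at 69.9, 64.5 and 69.5 CPM after WNK463, so its groups overlapped (log2 fold change -0.02, 95% interval -0.15 to 0.11), and its sign turned with scaling by total counts (0.13). PARP9 did not pass at a log2 fold change of 0.20. It was called higher with scaling by total counts (0.35), with limma on TPM (0.52 and 0.56) or without WNK463 replicate 1 (0.30). PARP9 and DTX3L overlap on opposite strands, and whether strand was used in counting is not given in the sources used here.

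Of the 4 nuclear proteins, SP100 rose, SP110 and TRIM22 fell and IFI16 did not pass. SP100 is a component of nuclear bodies, where it restrains viral genomes, and SP110 is a related protein encoded nearby on chromosome 2. SP100 was at 37.3, 43.7 and 43.2 CPM in Control and at 64.1, 65.9 and 65.1 CPM after WNK463 (log2 fold change 0.65, SE 0.07, edgeR adjusted p = 1.1e-07). SP110 fell in all 3 samples, with a log2 fold change of -0.53 (SE 0.09, edgeR adjusted p = 5.3e-05). TRIM22, a ubiquitin ligase, was at 116, 132 and 127 CPM in Control and at 112, 103 and 99.7 CPM after WNK463 (log2 fold change -0.25, SE 0.06, edgeR adjusted p = 0.0011). Its groups were close, and with scaling by total counts it had a log2 fold change of -0.10 and did not pass. IFI16, a sensor of nuclear DNA, had 25.02 to 27.7 CPM in Control and 27.4 to 32.3 CPM after WNK463. It was called higher with scaling by total counts (log2 fold change 0.28) and with limma on TPM (0.37 and 0.39).

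The remaining 13 effectors included 7 that rose and 2 that fell. RSAD2 encodes viperin, which makes a chain-terminating nucleotide from the product of CMPK2. RSAD2 was at 1.95, 3.64 and 2.74 CPM in Control and at 7.07, 10.2 and 10.4 CPM after WNK463 (log2 fold change 1.74, SE 0.21, edgeR adjusted p = 1.0e-06). CMPK2 rose by 0.72 on the log2 scale (SE 0.12, edgeR adjusted p = 2.9e-05). The groups of both genes were separate, but the 2 genes overlap on opposite strands. SAMD9L, a suppressor of growth in blood cells, was at 4.87, 7.13 and 5.37 CPM in Control and at 13.8, 15.4 and 11.4 CPM after WNK463 (log2 fold change 1.23, SE 0.15, edgeR adjusted p = 1.2e-06). Its neighbor SAMD9 had overlapping groups, with 40.6 to 59.7 CPM in Control and 40.0 to 43.0 CPM after WNK463, and was called lower with no filter on low counts (log2 fold change -0.24) and without Control replicate 1 (-0.35) or Control replicate 2 (-0.27). IFI30, a lysosomal thiol reductase that helps to present antigen, was at 45.5, 43.8 and 41.5 CPM in Control and at 85.8, 83.8 and 102 CPM after WNK463 (log2 fold change 1.05, SE 0.07, edgeR adjusted p = 6.3e-10). Like IRF9, it overlaps a read-through gene, which holds 36.3% of its transcript windows.

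IFI44 and IFI44L, neighboring genes on chromosome 1, were low in Control and rose. IFI44 was at 0.548, 0.617 and 0.305 CPM in Control and at 1.81, 1.92 and 1.09 CPM after WNK463 (log2 fold change 1.71, SE 0.40, edgeR adjusted p = 8.7e-04). IFI44L was at 0.487, 0.343 and 0.915 CPM in Control and at 2.54, 2.50 and 1.34 CPM after WNK463 (log2 fold change 1.84, SE 0.39, edgeR adjusted p = 4.4e-04). In both genes the third WNK463 sample was the lowest of its group and still above every Control sample. Both passed the low-count filter through the WNK463 group alone. No Control sample of IFI44 reached the cutoff, so being tested largely fixed the separation of its groups. IFI6, a membrane protein that protects cells from apoptosis, rose by 0.79 on the log2 scale (SE 0.18, edgeR adjusted p = 6.4e-04). IFI35 went the other way, with 11.7, 9.67 and 9.39 CPM in Control and 3.80, 4.24 and 3.38 CPM after WNK463 (log2 fold change -1.42, SE 0.16, edgeR adjusted p = 2.9e-07). It was 2.68-fold lower, the largest fall of the set. BST2 encodes tetherin, which holds budding viruses on the cell surface. BST2 was at 126, 123 and 133 CPM in Control and at 89.3, 98.0 and 96.5 CPM after WNK463 (log2 fold change -0.43, SE 0.06, edgeR adjusted p = 1.8e-06). XAF1, a promoter of apoptosis, had overlapping groups, with 23.9 to 38.5 CPM in Control and 30.7 to 34.8 CPM after WNK463, and was called higher without Control replicate 3 (log2 fold change 0.24). PLSCR1 and EPSTI1 did not pass, at log2 fold changes of 0.13 and 0.51. PLSCR1 was called higher with scaling by total counts (0.28) and with limma on TPM (0.46 and 0.47).

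Compared per transcript length as TPM, a few members made up most of the set. In Control, IFITM2 stood at 859 ± 53.1 TPM (SD, n = 3), IFITM1 at 380.3 ± 10.4, BST2 at 236 ± 9.96, ADAR at 138 ± 5.56 and IFITM3 at 112 ± 6.33. IFI30 at 98.3 ± 4.02 TPM and TRIM22 at 97.8 ± 10.7 TPM came next and differed by less than their SD. After WNK463, IFITM2 at 814 ± 26.6 TPM and IFITM1 at 810.0 ± 39.1 TPM also differed by less than their SD, so the order of the top pair was no longer resolved. IFITM2, IFITM1 and BST2 together took 62.8% of the summed TPM of the members in Control and 59.5% after WNK463. The summed TPM was 2347 ± 43.4 in Control and 3064 ± 79.5 after WNK463, and IFITM1 took 16.2% and 26.4% of it. The summed CPM, which uses the TMM scaling, was 1930.4 ± 28.2 and 2099 ± 45.9.

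The members were grouped by their TPM in Control. Of 12 members below 1 TPM, 8 were tested, 6 rose and 1 fell. All 8 passed the low-count filter through 1 group alone, so these counts say little about members at this level. Of 17 members between 1 and 10 TPM, 11 rose and 2 fell, with a median log2 fold change of 0.71. Of 19 members between 10 and 100 TPM, 8 rose and 4 fell, with a median of 0.13. Of 5 members over 100 TPM, 2 rose and 3 fell, with a median of -0.20. Over all levels, 35.5% of all tested genes were called higher and 35.3% lower, and their shares within these bands were not computed. The bands were cut on Control values that also enter the fold change. The order of the medians was therefore not read as an effect of level.

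**Figure D3:**
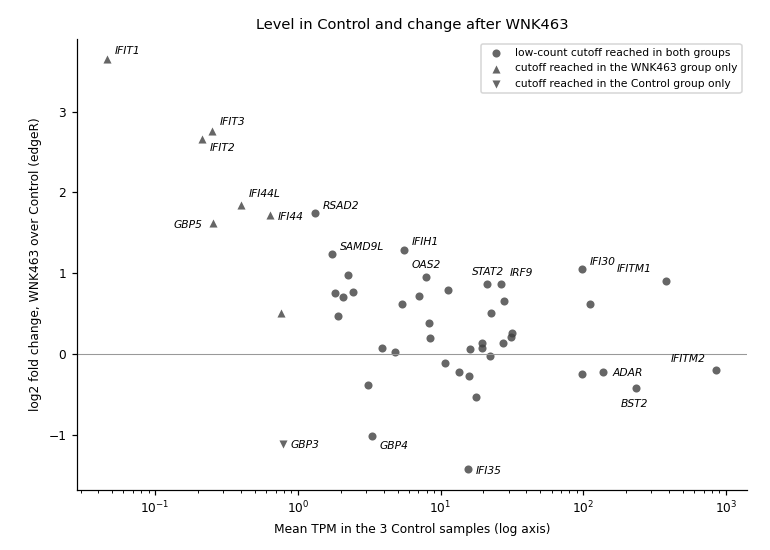
Mean TPM of each tested member in the 3 Control samples (log axis) against its log2 fold change after WNK463, with triangles for members that reached the low-count cutoff in 1 group alone. The upper left corner holds IFIT1, IFIT2 and IFIT3, and the right end holds IFITM2 at -0.20 and IFITM1 at 0.91.

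Neighboring and partner genes were compared as log2 ratios of counts within each sample, which do not depend on the scaling of libraries. With 3 samples a group the smallest exact two-sided permutation p is 0.1, and over the 15 pairs it became 0.15 after adjustment, so no pair could pass. In 10 of the 15 pairs the ratios of the groups did not overlap, and among all tested genes taken singly 73.5% did not overlap. The share among other pairs of genes was not computed, so this count is no result about neighbors. The log2 ratio of IFITM1 to IFITM2 was -1.35 ± 0.02 in Control and -0.24 ± 0.04 after WNK463 (SD, n = 3). The ratio of GBP5 to GBP4 went from -3.80 ± 0.33 to -1.14 ± 0.42, the largest difference at 2.66. The ratio of SP100 to SP110 went from 1.01 ± 0.16 to 2.20 ± 0.08. The differences in these 3 pairs do not depend on the scaling, but none passed the permutation test. Counts of IFITM1 and IFITM2 may be split uncertainly, and GBP5 passed the low-count filter through the WNK463 group alone. SAMD9L against SAMD9 differed by 1.44, OAS2 against OAS1 by 0.88 and MX1 against MX2 by 0.40. IFIT3 against IFIT2 (0.21), IFI44L against IFI44 (0.20) and HERC5 against HERC6 (-0.10) had overlapping groups.

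The ISRE core did not separate members that rose from members that did not. Among tested members with a promoter sequence, the 20 with the core held 11 that rose, 4 that fell and 5 that did not pass, with a median log2 fold change of 0.57 and a range from -1.11 to 3.65. The 17 without it held 9 that rose, 3 that fell and 5 that did not pass, with a median of 0.47 and a range from -1.42 to 1.74. BST2 and PARP14, which fell, carry the core, as do GBP3 and GBP4. RSAD2, SAMD9L and IFI30, which rose at least 2-fold, have no match to these letters in this window. The GAS core was found in 4 of the 7 lower members with a promoter (57.1%) in 3 of 20 higher members (15%) and in 3 of 10 members that did not pass (30%). The lower members with a GAS core were GBP3, PARP14, IFI35 and BST2, and the calls for GBP3 and PARP14 were lost under some alternatives. The presence of these letters does not show that a factor binds there.

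**Figure D4:**
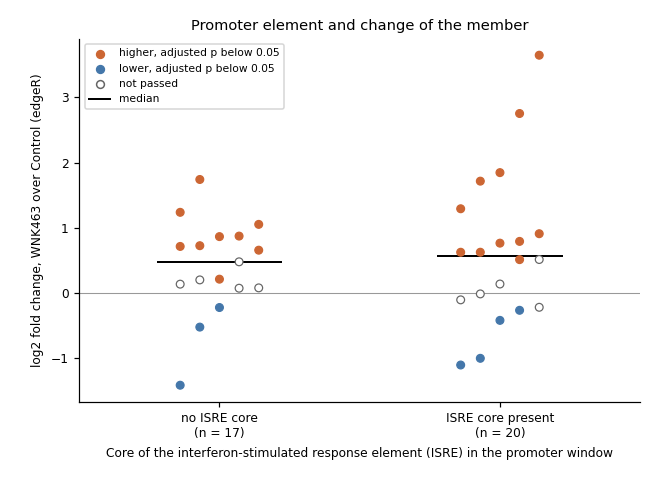
Log2 fold change of tested members without (n = 17) and with (n = 20) an ISRE core in the promoter window, with 1 point per member and a line at the median. Both groups hold members that rose and members that fell, and the medians are 0.47 and 0.57.

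Around the set, 48 other genes of the pathway were read from the same test, and 28 were tested, with 14 higher (50%) and 8 lower (28.6%), beside 35.5% and 35.3% of all tested genes. Their median log2 fold change was 0.10. None of the 10 listed interferon genes had enough counts to be tested. IFNB1 and IFNK had 1 count and IFNW1 had 4 counts over the WNK463 samples, none of the 10 listed ligands had a count in Control, and 3 counts in a library correspond to 0.174 to 0.206 CPM. Of 5 tested receptor genes, 4 rose. The largest rise was that of IFNGR1, a chain of the interferon-gamma receptor, at 38.5, 39.0 and 45.7 CPM in Control and 78.3, 81.0 and 77.2 CPM after WNK463 (log2 fold change 0.94, SE 0.07, edgeR adjusted p = 1.1e-09). IFNAR1 and IFNAR2, the chains of the type I receptor, rose by 0.27 and 0.26 on the log2 scale.

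The receptor kinases changed unequally. JAK2 was at 34.1, 40.0 and 41.3 CPM in Control and at 85.5, 95.1 and 87.8 CPM after WNK463 (log2 fold change 1.22, SE 0.07, edgeR adjusted p = 7.2e-11), the 1 pathway gene called higher at least 2-fold. JAK1 had a log2 fold change of -0.12, which turned to 0.029 with scaling by total counts, and its call was lost without Control replicate 3 (-0.11), WNK463 replicate 2 (-0.098) or WNK463 replicate 3 (-0.12). TYK2 did not pass, at -0.076, was called higher with limma on TPM (0.21) and was called lower without Control replicate 3 (-0.13). STAT3, a transducer shared with many cytokines, rose by 0.33 on the log2 scale (SE 0.06, edgeR adjusted p = 8.3e-05). Among the inhibitors of signaling, SOCS3 (log2 fold change 0.66), PTPN2 (0.41) and PTPN6 (0.16) rose, while PIAS1 and SOCS1 did not pass.

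The genes that lead to interferon production went in both directions, with 2 of 7 tested sensors and adaptors higher and 3 lower. MAVS, the adaptor of the RNA sensors, fell with a log2 fold change of -0.60 (SE 0.05, edgeR adjusted p = 1.0e-08), and STING1, the adaptor of the DNA sensor, fell by 0.56 on the log2 scale. CGAS, that DNA sensor, rose by 0.43. IKBKE, a kinase that activates IRF3, and IRF3 itself had log2 fold changes of -0.70 and -0.51. TBK1, a related kinase, was called higher at 0.21, but its groups overlapped, the sign turned to -0.31 with limma on TPM, and the call was lost without Control replicate 1 (0.11), Control replicate 2 (0.23), WNK463 replicate 1 (0.22) or WNK463 replicate 2 (0.11). RIGI, a further RNA sensor, did not pass, with 4.51 to 10.4 CPM in Control and 6.34 to 8.55 CPM after WNK463. IRF8, a factor of the monocytic lineage, was at 791, 770.0 and 785 CPM in Control and at 459, 463 and 472 CPM after WNK463 (log2 fold change -0.75, SE 0.04, edgeR adjusted p = 3.8e-11). IRF4 also fell, whereas IRF5 and CIITA, the activator of MHC class II genes, rose by 0.34 and 0.88. The interferon-gamma targets CXCL9, CXCL10, CXCL11 and IDO1 were not tested. CXCL10 had 4 counts over the Control samples and 50 over the WNK463 samples, a ratio of 11.99 with a 95% interval for counting error from 4.4 to 45.7.

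**Figure D5:**
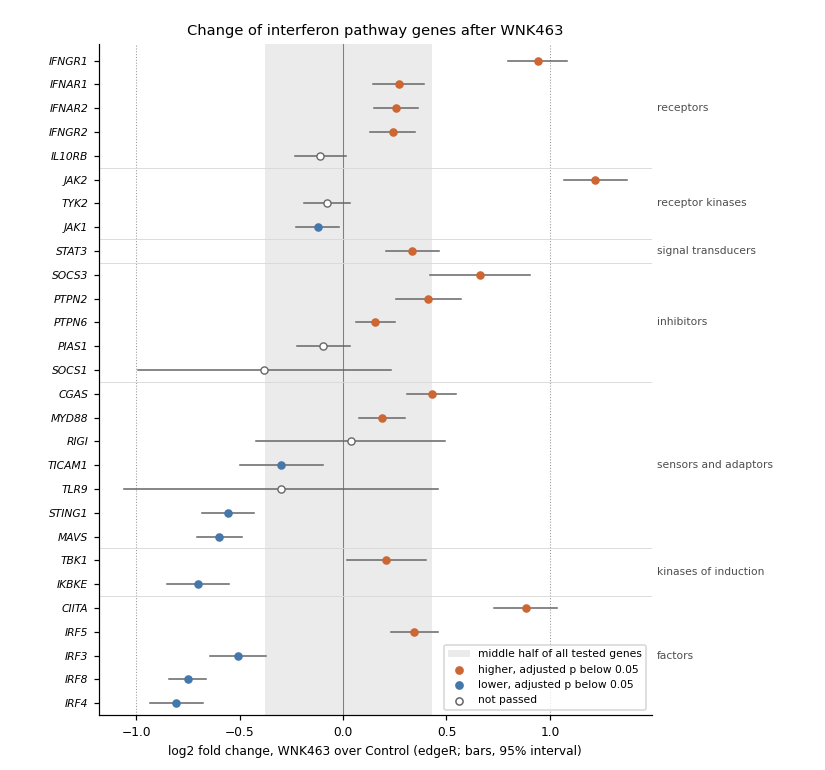
Log2 fold change of the 28 tested pathway genes by role, with 95% intervals as bars and the interquartile range of all tested genes as a gray band. JAK2 is highest at 1.22, while IRF4, IRF8 and IKBKE lie lowest between -0.81 and -0.70.

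The libraries held 14915745 to 17411780 counts each. Among the markers of the line, SPI1, a factor of myeloid cells, did not pass (log2 fold change 0.00). FLT3, the receptor tyrosine kinase of leukemic blasts, was at 348 to 381 CPM in Control and 317 to 324 CPM after WNK463. FLT3 was called lower (log2 fold change -0.20, edgeR adjusted p = 8.3e-04), as was CD33 (-0.38, edgeR adjusted p = 1.5e-05). CD14 was not tested, with at most 0.581 CPM. Myeloid markers moved with the treatment. MPO and LYZ fell, with log2 fold changes of -2.50 and -2.22, and PTPRC and CSF1R rose, with 1.20 and 0.97. The part of these changes in those of the interferon-stimulated genes was not tested, and in such bulk samples fewer cells of a type and less RNA per cell cannot be told apart. Of 13 markers of other cell types, 5 had no count in any sample (CD3D, MS4A1, HBB, EPCAM and KRT19). PECAM1, which myeloid cells also express, was at 91.4 to 105 CPM in Control and 163 to 176 CPM after WNK463. The other 12 summed to between 0.549 and 0.915 CPM in Control and between 1.74 and 1.87 CPM after WNK463. CLEC4C and LILRA4, markers of the plasmacytoid dendritic cells that make much interferon, summed to at most 0.274 CPM in Control and at most 0.785 CPM after WNK463.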

How the data were processed

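mRNA was captured with beads, fragmented and sequenced on an Illumina NovaSeq X Plus. For each sample the authors deposited estimated counts, as whole numbers, and TPM of 20348 genes. Their processing notes name fastp, Bowtie2, HISAT2, StringTie, RSEM, DESeq2, edgeR and the GRCh38 build, without versions or roles. The deposited fold changes and p-values were not used. Counts of 0 stood beside a TPM above 0 in 62 cases.

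Groups were taken from the sample labels. After edgeR's filterByExpr step, the deposited counts of all genes were normalized by TMM and fitted with the quasi-likelihood model of edgeR 4.0.16 in R 4.3.3. Genes were called at an adjusted p below 0.05. Alternatives were DESeq2 1.42.0, limma 3.58.1 on log2(TPM + 1) and log2(TPM + 0.1), total-count scaling, a stricter or no low-count filter, the replicate number as a block and leaving out each sample. The edgeR step was tested on simulated data. The biological coefficient of variation was 5.21%.

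The members, pathway genes, markers and pairs were chosen with earlier results of these data known, so no test was made over a list. The pathway list and the marker list are each without 1 gene that is not analysed here. Values in every sample were printed for members changed at least 2-fold at an adjusted p below 0.05 and, in each role, for the member with the highest counts and the one with the largest change. Gene positions are from GENCODE 29. Counting intervals cover counting error alone.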

Additional observations from a re-analysis of the deposited data

How the results depend on the processing

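The 49 tested members were refitted under 13 alternatives. Of 619 combinations of a member and an alternative, 554 kept their direction and call, 34 lost the call, 18 gained one and 13 turned direction, and 30 members kept theirs under every alternative that tested them. The members that turned were not called in the reported fit nor where they turned. EIF2AK2 had 0.040 and DTX3L 0.13 with scaling by total counts, and DTX3L 0.18 and 0.19 with limma. When each sample was left out, DTX3L ranged from -0.070 to 0.016, IRF7 from -0.0039 to 0.12, USP18 from -0.085 to 0.063, OAS1 from -0.072 to 0.19 and XAF1 from -0.099 to 0.24. The sign turned without Control replicate 3 or WNK463 replicate 2 for DTX3L, without Control replicate 2 or WNK463 replicate 3 for IRF7 and USP18, without Control replicate 1 or WNK463 replicate 2 for OAS1 and without Control replicate 1 for XAF1. The count of members lower was 10, and was 5 with scaling by total counts and 4 with limma on log2(TPM + 1) or log2(TPM + 0.1). The share of all tested genes called lower also moved, from 35.3% to 26.1% with scaling by total counts and to 23.3% and 23.2% with limma. With limma the calls for IFITM2, ADAR, GBP2, PARP14 and TRIM22 were lost. The count higher at least 2-fold was 10, and was 4 when every sample had to reach 10 counts, 15 with scaling by total counts, 14 with limma on log2(TPM + 0.1) and 11 to 14 when each sample was left out. The share of all tested genes was 9.62%, and in the same order 6.64%, 12.1%, 10.4% and 9.54% to 10.1%. The count lower at least 2-fold was 3, and was 1 with scaling by total counts, with 10 counts required in every sample and with limma on either TPM scale. It was 1 to 3 when each sample was left out in turn, with 1 without Control replicate 3 or WNK463 replicate 1. Of all tested genes, 5.55% were lower at least 2-fold, and 3.83% with scaling by total counts. This share was 4.59% with 10 counts required in every sample, 2.33% and 3.21% with limma, and 5.44% to 5.79% with a sample left out. The median log2 fold change of the members was 0.51, and was 0.61 with DESeq2, 0.66 with scaling by total counts, 0.61 with no filter on low counts, 0.28 with 10 counts required in every sample, 0.56 with limma on log2(TPM + 0.1), and 0.45 to 0.63 when each sample was left out. Relative to the main scaling, limma on TPM moved all genes up by a median of 0.18 and 0.19, and 87.9% of called members were then higher, beside 65.2% of all called genes. Among pathway genes, JAK1 turned from -0.12 to 0.029 with scaling by total counts and to 0.074 and 0.075 with limma, TYK2 from -0.076 to 0.075 with scaling by total counts and to 0.21 and 0.21 with limma, and TBK1 from 0.21 to -0.31 and -0.32 with limma. IL10RB turned to 0.042 with scaling by total counts and to 0.11 and 0.11 with limma, and PIAS1 to 0.057 with scaling by total counts. When each sample was left out, RIGI ranged from -0.23 to 0.34 and TLR9 from -0.56 to 0.057, with the sign turned without Control replicate 1 or WNK463 replicate 3 for RIGI and without WNK463 replicate 2 for TLR9. The cause of these changes was not tested. A fit with a replicate block gave 27 members higher and 10 lower, beside 35.3% and 34.9% of all tested genes. SAMD9 gained a call in it, and GBP2 lost its call, as did JAK1. The deviations of same-numbered samples from their group means correlated at 0.01, 0.03 and -0.07, so no effect shared by same-numbered samples was seen. The labels do not say whether these samples were set up as pairs. At this depth a member with 3 counts in a library stands at 0.174 to 0.206 CPM, which limits what can be said of IFIT1, IFIT5, OAS3, ISG20 and GBP1.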
